A study of Homo sapiens and Mus musculus with 10 samples.

Results

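The forkhead (FOX) genes encode transcription factors that share the forkhead DNA-binding domain, and chromatin at these genes was compared between 4 human cell lines. Members were all protein-coding genes of GENCODE release 44 on the autosomes and X whose symbol is FOX, a letter from A to S and a number, with an optional L copy number. There were 50 of them among 19970 protein-coding genes. For each gene and library, promoter peaks were counted within 1 kb of any annotated start site and all peaks within 50 kb of any start site.

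The forkhead domain is a winged helix that contacts DNA at a core close to TGTTTAC. FOXA proteins are known as pioneer factors that bind their sites in closed chromatin, and FOXA1 and FOXA2 are best known from liver, gut, lung and breast epithelium. FOXO proteins sit downstream of insulin and PI3K-AKT signalling, which keeps them out of the nucleus, and they act on genes of cell cycle arrest, metabolism and survival. FOXM1 drives genes of mitosis, FOXP proteins act as repressors in lung, brain and lymphocytes, and the FOXC, FOXF, FOXL1 and FOXQ1 genes lie in clusters and act in mesoderm and in the mesenchyme of several organs.

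Bulk ATAC-seq, in which the Tn5 transposase inserts adapters into accessible DNA, was deposited as 1 peak list per library, with 2 replicates of each line. HFF1 are fibroblasts from foreskin and K562 are erythroleukaemia cells. GM12878 is a B-lymphoblastoid line made with Epstein-Barr virus, and HEK293T came from embryonic kidney and carries the large T antigen of SV40. GM12878 was grown in RPMI medium, as was K562 (spelled K526 in the labels), and HEK293T and HFF1 in DMEM, all with fetal bovine serum, and the labels name no treatment. The lines differ in donor as well as in cell type, so a difference between lines cannot be told apart from a difference between donors. The mouse stem cell lists of the study were not analysed here.

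The libraries differed in depth, which bears on every absence below. The background level recovered from the lists, in reads per window, was 0.465 to 0.466 in HEK293T and 1.71 to 2.43 in the other 6 libraries, and the lists held 52137 to 127359 peaks. Marker promoters followed the line names in part. Promoter peaks in both replicates of the matching line were found for all 8 B-cell markers (GM12878), all 8 fibroblast markers (HFF1), 6 of 8 erythroid markers (K562; KLF1 and HBG1 had none in any library) and 6 of 8 kidney markers (HEK293T; PAX8 did not have one in both libraries there and had one in the other 3 lines). The kidney markers did not set HEK293T apart: 6 of 8 had such a peak in HFF1 too, and within 50 kb 3 were called higher in HEK293T and 5 in HFF1. Of 8 markers of T cells and epithelium, 7 had a promoter peak in both libraries of GM12878, 4 of HEK293T, 5 of HFF1 and 5 of K562, so such a peak does not by itself name a cell type.

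A set of 4 promoters from RefSeq on GRCh38.p14 show the range of base composition at forkhead start sites. Each is the 250 bases before the start, read 5′ to 3′ on the gene's strand, with every CpG in capitals. FOXO1 (chr13:40666642-40666891, minus strand) had a promoter peak in all 8 libraries, FOXI3 (chr2:88452694-88452943, minus strand) in HEK293T alone, and FOXL3 (chr7:289920-290169, plus strand) and FOXR2 (chrX:55623150-55623399, plus strand) in none.
FOXO1, all 8 libraries: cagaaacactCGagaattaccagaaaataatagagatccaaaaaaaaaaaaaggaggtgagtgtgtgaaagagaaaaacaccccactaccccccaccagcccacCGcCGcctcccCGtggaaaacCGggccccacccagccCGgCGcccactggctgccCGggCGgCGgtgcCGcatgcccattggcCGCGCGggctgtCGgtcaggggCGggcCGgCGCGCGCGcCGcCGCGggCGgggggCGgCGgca
FOXI3, HEK293T alone: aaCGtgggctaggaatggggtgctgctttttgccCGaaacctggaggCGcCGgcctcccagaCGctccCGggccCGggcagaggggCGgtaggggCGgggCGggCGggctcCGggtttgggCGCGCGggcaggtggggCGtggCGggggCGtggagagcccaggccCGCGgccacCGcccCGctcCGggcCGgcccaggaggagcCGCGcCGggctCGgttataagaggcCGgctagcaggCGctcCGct
FOXL3, no library: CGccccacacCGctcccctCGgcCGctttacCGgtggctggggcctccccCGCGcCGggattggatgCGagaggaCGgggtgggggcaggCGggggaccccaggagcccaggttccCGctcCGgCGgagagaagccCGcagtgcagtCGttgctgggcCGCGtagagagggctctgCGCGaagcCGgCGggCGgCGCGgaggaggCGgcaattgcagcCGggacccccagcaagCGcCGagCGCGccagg
FOXR2, no library: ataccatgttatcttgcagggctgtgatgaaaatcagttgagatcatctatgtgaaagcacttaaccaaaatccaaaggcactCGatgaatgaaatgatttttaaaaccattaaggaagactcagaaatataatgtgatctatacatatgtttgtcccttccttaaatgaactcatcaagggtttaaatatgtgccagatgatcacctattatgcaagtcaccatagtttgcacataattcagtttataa
The stretches hold 27 CpG sites for FOXO1, 31 for FOXI3, 31 for FOXL3 and 1 for FOXR2. RefSeq had a promoter for 39 of the 50 genes. Over all 35116 promoters of that table the median was 11.0 CpG sites, and 93.9% held at least 1. The FOXL3 stretch is as rich in CpG as that of FOXI3, and it had no peak in any library.

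Distal sequences are shown for regions with a peak in both libraries of 1 line and in no other library, since they are the clearest cases of a difference between lines near a forkhead gene. They reach 50 bases either side of the summit in the strongest library, on the plus strand of GRCh38, and capitals mark letters that match a searched motif on either strand. The letters searched included TGACTCA for the stress and growth factor complex AP-1 and AGATAA for the GATA factors of blood and other tissues. They also included GGAATG for the TEAD factors of the Hippo pathway and CAGCTG for E-box factors with a helix-loop-helix domain. ATGCAAAT stood for the octamer factors of the OCT family, TGTGGTT for the RUNX factors of blood and bone, and TGTTTAC for the forkhead domain. Letters for the ETS, CTCF, NF-kB, IRF and EBF factors were searched as well.
FOXN3, HFF1, forkhead: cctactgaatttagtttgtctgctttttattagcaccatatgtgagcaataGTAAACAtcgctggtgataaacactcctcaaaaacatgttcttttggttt
FOXQ1, HFF1, AP-1: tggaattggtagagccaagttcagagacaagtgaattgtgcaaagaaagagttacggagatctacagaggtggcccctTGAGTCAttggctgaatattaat
FOXI1, HFF1, AP-1: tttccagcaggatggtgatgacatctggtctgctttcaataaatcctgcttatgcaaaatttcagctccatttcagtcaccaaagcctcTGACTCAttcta
FOXP1, HFF1, AP-1: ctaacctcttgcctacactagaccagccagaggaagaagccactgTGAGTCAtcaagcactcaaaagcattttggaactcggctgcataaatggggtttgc
FOXO1, GM12878, AP-1: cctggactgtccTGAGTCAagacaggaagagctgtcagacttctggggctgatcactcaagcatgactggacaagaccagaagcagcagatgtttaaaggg
FOXJ3, GM12878, OCT and AP-1: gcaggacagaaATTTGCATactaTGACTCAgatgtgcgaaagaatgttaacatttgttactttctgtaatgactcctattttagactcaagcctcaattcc
FOXI1, K562, GATA: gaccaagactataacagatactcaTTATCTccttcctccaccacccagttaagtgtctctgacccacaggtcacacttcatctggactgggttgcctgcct
FOXC1, K562, AP-1, GATA and TEAD: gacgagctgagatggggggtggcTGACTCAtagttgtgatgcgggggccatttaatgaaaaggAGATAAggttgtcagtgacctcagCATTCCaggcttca
FOXP2, HEK293T, TEAD and E-box: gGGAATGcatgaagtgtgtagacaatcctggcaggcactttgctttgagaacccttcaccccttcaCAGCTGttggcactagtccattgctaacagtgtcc
The FOXN3 stretch (chr14:89131135-89131235) lies in an intron of FOXN3, that of FOXQ1 (chr6:1297853-1297953) between genes 14195 bp upstream of FOXQ1, and that of FOXP1 (chr3:70999930-71000030) in an intron of FOXP1. The HFF1 stretch of FOXI1 (chr5:170132788-170132888) and its K562 stretch (chr5:170087557-170087657) both lie between genes, 26925 bp after and 18290 bp before the nearest start site. The FOXO1 stretch (chr13:40589813-40589913) is intronic, the FOXJ3 stretch (chr1:42358937-42359037) lies between genes, the FOXC1 stretch (chr6:1630867-1630967) in an intron of the neighbouring gene GMDS, and the FOXP2 stretch (chr7:114653495-114653595) in an intron of FOXP2. A match is a description of letters and not a bound site. All 208957 distal regions merged from the peaks of the 8 libraries were searched over the same length around the summit. Of these accessible regions, AP-1 letters occurred in 11.8%, GATA in 6.13%, TEAD in 6.83%, E-box in 9.59%, OCT in 1.23% and forkhead in 2.14%.

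Promoter peaks divided the family. A promoter peak stood in all 8 libraries at 18 of 50 genes (36.0%, against 59.7% of all protein-coding genes), in some libraries at 18, and in none at 14 (28.0%, against 14.7%). The genes with a peak everywhere were FOXA3, FOXD1, FOXD2, FOXD3, FOXJ1, FOXJ2, FOXJ3, FOXK2, FOXL1, FOXM1, FOXN2, FOXN3, FOXO1, FOXO3, FOXO4, FOXO6, FOXP1 and FOXP4. This set held all 4 FOXO genes, the mitotic regulator FOXM1 and FOXJ1, a regulator of motile cilia. The class counts a peak at any annotated start. At FOXL1 the peak in all 8 libraries lay at another start (chromosome 16, 86576368). The main start of FOXL1 had a peak in both HFF1 libraries alone (4.31 and 3.53), and that of FOXP1 lacked one in HEK293T replicate 2. The genes without a promoter peak in any library were FOXD4, FOXD4L1, FOXD4L3, FOXD4L4, FOXD4L5, FOXD4L6, FOXH1, FOXI1, FOXI2, FOXL3, FOXN1, FOXN4, FOXP3 and FOXR2. They include FOXP3, the defining factor of regulatory T cells, FOXN1 of the thymic epithelium and the nodal pathway partner FOXH1. Without the shallow HEK293T libraries, an alternative chosen after seeing the data, 19 genes had a peak in every library (against 63.6% of all genes) and 16 in none (against 15.2%).

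**Figure D1:**
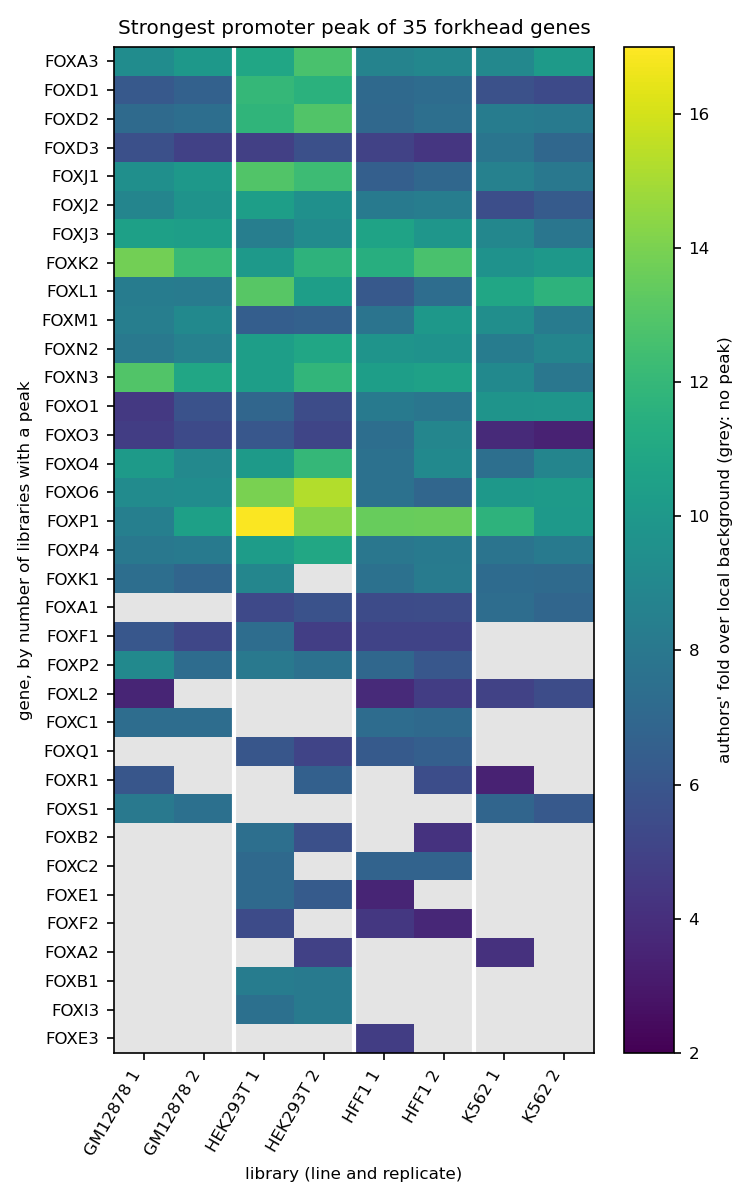
Strongest promoter peak of 35 of the 36 forkhead genes with at least 1, by library (columns, 2 per line); colour is the authors' fold over local background and grey means no peak past the authors' threshold. The 18 genes in the upper rows have a peak in all 8 libraries, and FOXB1 and FOXI3 in HEK293T alone.

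By line, both libraries had a promoter peak at 23 forkhead genes in GM12878 (all genes 71.9%), 27 in HEK293T (67.8%), 27 in HFF1 (76.2%) and 23 in K562 (70.4%). HEK293T, the line of least depth, had as many as HFF1. These are counts without a test. A few windows also hold the start of another protein-coding gene, so the peak cannot be assigned to one gene: SYMPK at FOXA3, TTC6 at FOXA1, FOXL2NB at FOXL2, and RHNO1 and TULP3 at FOXM1.

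CpG-rich start sites were common in the family, also at genes without a peak everywhere. The ratio of observed to expected CpG within 500 bp of the main start site was at least 0.6 at 40 of 50 forkhead genes (80.0%), against 66.3% of all genes. Among these 40 genes, 18 (45.0%) had a promoter peak in all 8 libraries, against 79.1% of all genes above that ratio, and 6 (15.0%) had one in no library, against 2.52%. The median ratio was 0.838 for the 18 genes with a peak everywhere, 0.838 for the 18 with a peak in some libraries and 0.500 for the 14 without one. Of the last, FOXL3 had the highest ratio at 0.791 and FOXR2 the lowest at 0.127.

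**Figure D2:**
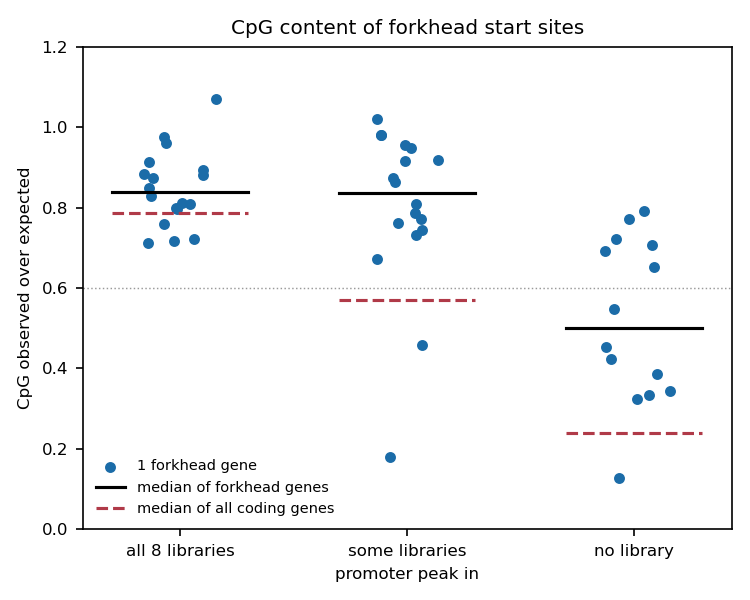
Ratio of observed to expected CpG within 500 bp of the main start site, for each forkhead gene (points) by the libraries with a promoter peak at any start, with the forkhead median (black) and the median of all coding genes (dashed). The dotted line is 0.6. Forkhead genes without a promoter peak have a median of 0.500, above the 0.240 of all genes of that class.

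The 6 genes of the FOXD4 group are near-identical copies. Windows of 2001 bp at all 6 start sites matched other places in the genome at 97.7% to 99.8% identity for the best copy of each gene, and no other forkhead gene had such a match. Reads there may map to several places, so the absence of a peak at FOXD4, FOXD4L1, FOXD4L3, FOXD4L4, FOXD4L5 and FOXD4L6 is uncertain.

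Among genes open in some lines, FOXA1 had a promoter peak in every line but GM12878. Its strongest promoter peak had the authors' fold over local background of 5.29 and 5.78 in the HEK293T replicates, 5.45 and 5.46 in HFF1, and 7.38 and 6.94 in K562, and GM12878 had no promoter peak. The fold is a value of each list and is not compared between lists. FOXA2, its paralogue, had a promoter peak in 1 library each of HEK293T (4.91) and K562 (4.14).

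Developmental regulators of mesoderm and mesenchyme followed different lines. FOXC1, a regulator of eye and vascular development, had promoter peaks in GM12878 (7.38 and 7.36) and HFF1 (7.31 and 7.13) and in neither other line. FOXC2, of lymphatic vessels, had them in HFF1 (6.75 and 6.78) and in HEK293T replicate 1. FOXF1, of lung and gut mesenchyme, had them in GM12878, HEK293T and HFF1 and not in K562. FOXF2 had them in HFF1 (4.45 and 3.68) and in 1 HEK293T library (5.45), and FOXQ1 in HFF1 (6.25 and 6.54) and HEK293T (6.04 and 5.06).

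FOXB1, FOXB2, FOXE1 and FOXI3 are also developmental genes, and both HEK293T libraries had a promoter peak at each of them. At FOXB1 (8.28 and 8.16) and FOXI3 (7.52 and 8.18) no other library had one. Of all protein-coding genes, 0.336% had a promoter peak in HEK293T alone. No forkhead gene had a promoter peak in both libraries of GM12878, HFF1 or K562 alone (1.40%, 2.05% and 1.12% of all genes). FOXB2 and FOXE1 each had 1 further library, HFF1 replicate 2 (4.20) and HFF1 replicate 1 (3.56).

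The remaining partial genes were mixed. FOXL2, an ovarian regulator, had promoter peaks in HFF1 and K562 and in 1 GM12878 library, and FOXS1 in GM12878 (8.04 and 7.52) and K562 (6.87 and 6.18). FOXK1 had one in every library except HEK293T replicate 2. FOXR1 had one in a single library of each line, at a later start and not at its main start, and FOXE3 in 1 HFF1 library. FOXP2, known for its role in speech and vocal learning, had promoter peaks in both libraries of GM12878, HEK293T and HFF1 and in no K562 library.

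Several forkhead genes start at more than 1 place, and the open start differed by line. The start sites fell into 129 groups, of which 19 had a peak in all 8 libraries and 62 in none, and 22 genes had more than 1 group. FOXP1 is a regulator of B-cell and lung development with many annotated starts. A start 40.2 kb inside FOXP1 (chromosome 3, 71543557) had peaks of fold 16.9 and 14.3 in HEK293T, 13.5 and 13.6 in HFF1 and 11.7 and 10.1 in K562, and none in GM12878. A start 223.0 kb inside the gene had peaks in GM12878 alone (8.45 and 7.72). Further in, the start at 372.9 kb had them in both HFF1 libraries (11.5 and 11.4) and in HEK293T replicate 2 (5.19), and the start at 397.2 kb in K562 alone (6.73 and 6.48). At 338.5 kb and at 453.0 kb both HFF1 and both K562 libraries had one.

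FOXN3, a repressor of the cell cycle checkpoint pathway, had a start 77.0 kb upstream of its main start with peaks in GM12878 alone (12.9 and 10.9), and a start 231.4 kb downstream with peaks in HFF1 alone (7.36 and 5.55). A start 95.4 kb inside FOXO3 (chromosome 6, 108656346) had peaks in both HFF1 libraries alone, while the first 2 start groups of FOXO3 had peaks in all 8 libraries. In FOXP2, starts 213.7 kb and 216.8 kb inside the gene had peaks in GM12878 alone (4.58 and 5.44, and 9.12 and 7.28). A peak at an annotated start shows accessible chromatin and not transcription from it.

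**Figure D3:**
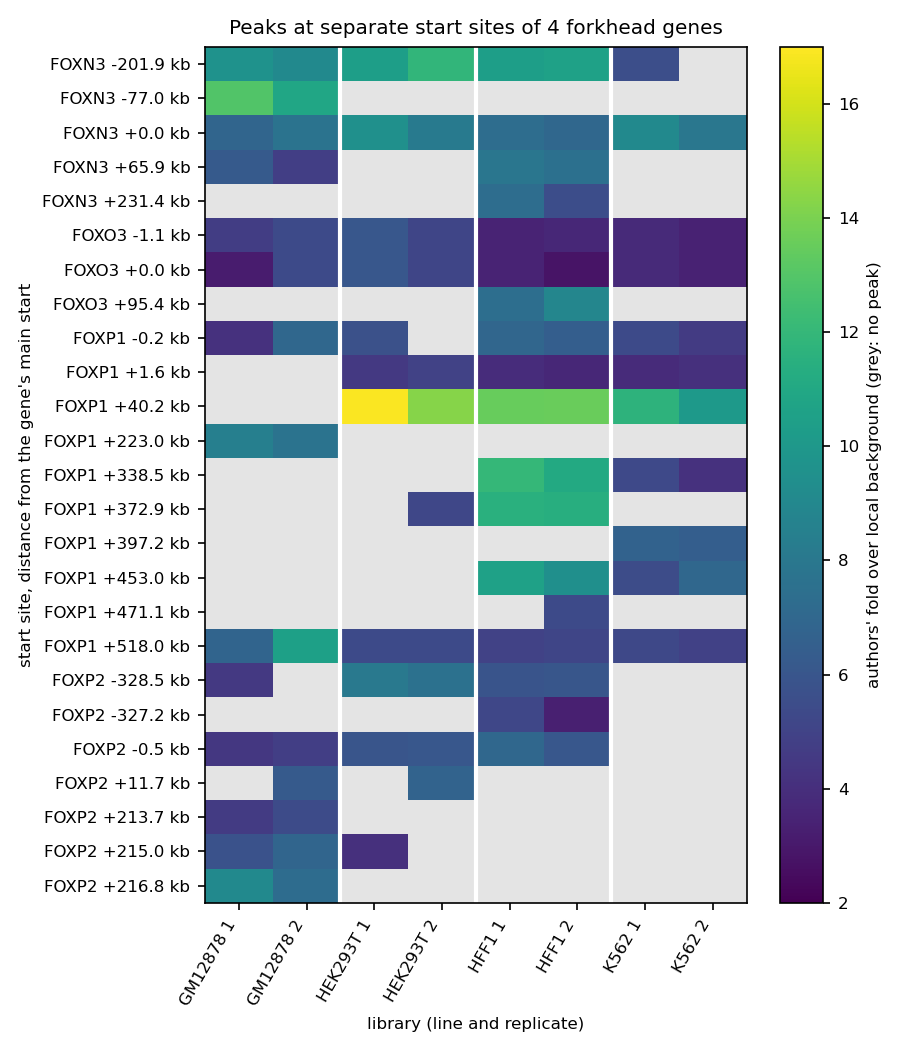
Authors' fold of the strongest peak within 1 kb of each start-site group with a peak in any library, for FOXN3, FOXO3, FOXP1 and FOXP2 (rows, distance from the gene's main start in kb), by library (columns); grey means no peak. The FOXP1 start at 40.2 kb is grey in both GM12878 libraries alone, and every FOXP2 row is grey in K562.

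Peaks within 50 kb of a start site measure the wider neighbourhood. Each line was compared with the mean of the other 3 lines on log2(number of peaks + 1), centred on each library's mean over all genes tested, with limma and Benjamini-Hochberg adjustment over 19036 genes. The 4 contrasts share libraries. Called means an adjusted p under 0.05. Of 44 forkhead genes tested (6 had a mean under 1 peak), 36 were called in at least 1 contrast (81.8%, against 82.9% of all genes), so the share called was near that of other genes. The median absolute log2 difference was 0.35 for the family and 0.34 for all genes.

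In GM12878, 6 genes were higher (13.6%, against 22.4% of all genes) and 19 lower (43.2%, against 22.0%). In HEK293T, 15 were higher (34.1%, against 23.1%) and 3 lower (6.82%, against 23.4%). In HFF1, 11 of 44 were higher (against 23.4%) and 9 lower (20.5%, against 25.1%). In K562, 10 were higher (22.7%, against 24.5%) and 9 lower (20.5%, against 19.1%). Without centring of the libraries, the median gene moved by 0.30 in GM12878, -0.70 in HEK293T, 0.43 in HFF1 and 0.01 in K562, and the calls of all genes moved with it. The forkhead calls were then 13 higher (29.5%, against 41.5% of all genes) and 10 lower (22.7%, against 9.66%) in GM12878. They were 3 higher (6.82%, against 3.15%) and 29 lower (65.9%, against 74.1%) in HEK293T, and 25 higher (56.8%, against 54.1%) and 2 lower (4.55%, against 6.65%) in HFF1. Each of these shares in GM12878, HEK293T and HFF1 stayed on the same side of the share over all genes as with centring. K562 did not follow throughout, with 8 higher and 8 lower of 44 without centring. Its share called higher stayed below that of all genes. Its share called lower went from above that of all genes to below it. Among the 20000 strongest peaks of each library, 5 of 30 were lower in GM12878 (against 20.5%). In HEK293T 6 were then higher (against 22.2%), and neither share was above that of all genes. Among the 50000 strongest, GM12878 had 13 of 41 lower (against 19.7%) and HEK293T 12 higher (against 18.7%). HFF1 then had 7 higher (against 22.4%) and 10 lower (against 22.2%), so both its shares changed sides. The sum of calls fell from 25 to 16 without GM12878 replicate 1 and to 14 without replicate 2, from 20 to 12 without HFF1 replicate 1, and from 19 to 12 without K562 replicate 2, where the shares over all genes called fell to 25.1%, 25.8%, 29.7% and 25.9%. The p-values measure only the spread between these lists, which may be technical.

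**Figure D4:**
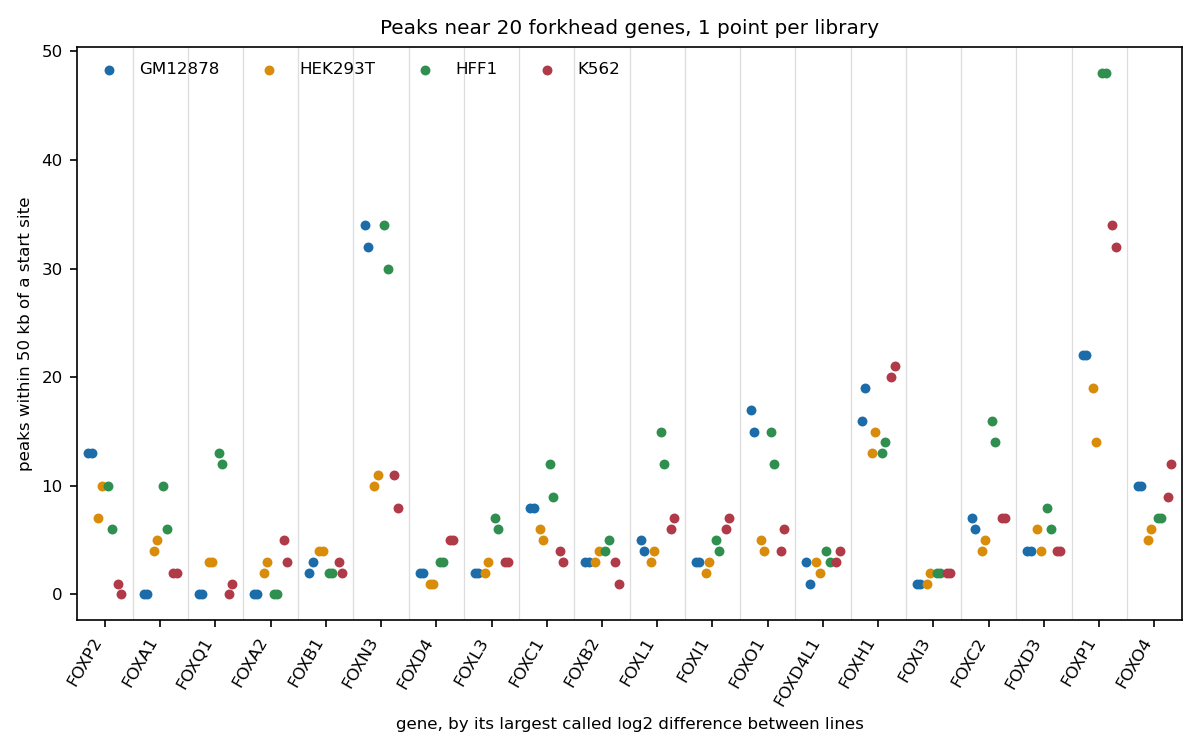
Number of peaks within 50 kb of a start site (vertical axis) in each of 8 libraries (points, coloured by line) for the 20 forkhead genes reported here with the largest called log2 difference. FOXA1, FOXA2 and FOXQ1 have no peak in either GM12878 library, and FOXP1 has 48 in both HFF1 libraries.

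FOXA1 and FOXA2, the pioneer factors of endoderm and epithelium, had no peak nearby in GM12878. FOXA1 had 0 and 0 peaks within 50 kb in GM12878, 4 and 5 in HEK293T, 10 and 6 in HFF1 and 2 and 2 in K562. GM12878 was below every other library, with a log2 difference of -2.69 ± 0.18 (SE, n = 2 libraries against 6; limma adjusted p = 1.39e-05). HEK293T was higher by 1.59 ± 0.18 (adjusted p = 2.13e-04). The HFF1 difference of 1.32 was lost within 25 kb (0.33, adjusted p = 0.281) and among the 50000 strongest peaks (0.32, adjusted p = 0.429). FOXA2 had 0 and 0 peaks in GM12878 and in HFF1, 2 and 3 in HEK293T and 5 and 3 in K562. Its 4 contrasts were all called under every limma alternative that tested it, with K562 higher by 1.75, HEK293T higher by 1.74, GM12878 lower by -1.66 and HFF1 lower by -1.83. FOXA3 had 6 to 12 peaks in every library, and HFF1 was lower by -0.45 (adjusted p = 0.00435). Differences against a line with 0 peaks depend on the pseudocount: with 0.5 in place of 1, FOXA1 in GM12878 stood at -3.56.

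FOXQ1, an epithelial and mesenchymal regulator, had 13 and 12 peaks in HFF1, 3 and 3 in HEK293T, 0 and 0 in GM12878 and 0 and 1 in K562. HFF1 was above all other libraries without overlap, by 2.46 ± 0.25 (SE; adjusted p = 8.33e-05), and GM12878 was lower by -2.38 ± 0.25 (adjusted p = 1.22e-04). The K562 difference was -1.37, and -0.82 without K562 replicate 1. FOXQ1, FOXF2 and FOXC1 follow each other on chromosome 6 (FOXQ1 at 1312098 to 1314758, FOXF2 at 1389576 to 1395603, FOXC1 at 1609915 to 1613897), and 1 region was shared between FOXQ1 and FOXF2. FOXF2 had 12 and 11 peaks in HFF1 and 4 to 7 in the other libraries, a difference of 0.53 (adjusted p = 0.0182) that was not called without HFF1 replicate 1 (adjusted p = 0.124) or without replicate 2 (adjusted p = 0.0983). FOXC1 had 12 and 9 in HFF1, 8 and 8 in GM12878, 6 and 5 in HEK293T and 4 and 3 in K562, and K562 was lower by -0.91 ± 0.13 (adjusted p = 7.65e-04).

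The cluster on chromosome 16 also had most peaks in HFF1. FOXF1 (86510527 to 86515422), FOXC2 (86566829 to 86569728) and FOXL1 (86576368 to 86583478) share regions (18 in common for FOXC2 and FOXL1), so their counts are not independent. FOXC2 had 16 and 14 peaks in HFF1 and 4 to 7 elsewhere, a log2 difference of 0.75 ± 0.12 (SE; adjusted p = 9.98e-04). FOXL1 had 15 and 12 in HFF1 and 3 to 7 elsewhere, at 0.88 ± 0.15 (adjusted p = 0.00148), which among the 20000 strongest peaks was -0.20. FOXF1 had 9 and 9 in HFF1 and 3 to 5 elsewhere, at 0.65 ± 0.14 (adjusted p = 0.00411), and 0.37 within 25 kb (adjusted p = 0.135).

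The FOXP genes were divided. FOXP2 had 13 and 13 peaks in GM12878, 7 and 10 in HEK293T, 10 and 6 in HFF1 and 1 and 0 in K562. The K562 libraries were below all others, by -2.84 ± 0.25 (SE; adjusted p = 4.91e-05), and the call held under every limma alternative that tested it. GM12878 was higher by 1.22 (adjusted p = 0.00395) and HEK293T by 1.46 (adjusted p = 0.00163), and these were -0.29 among the 50000 strongest peaks and 0.75 without centring (adjusted p = 0.0835; median gene -0.70). FOXP1 had 48 and 48 peaks in HFF1, 34 and 32 in K562, 22 and 22 in GM12878 and 19 and 14 in HEK293T. HFF1 did not overlap any other line. The FOXP1 window is long, at 708830 bp with 67 start sites. Its GM12878 difference was -0.71 ± 0.10 (adjusted p = 7.35e-04) and its HFF1 difference 0.58 ± 0.10 (adjusted p = 0.00200), and neither was called among the 50000 strongest peaks (-0.49 and 0.32). FOXP3 had 4 to 7 peaks in every library, with HFF1 lower by -0.52 (adjusted p = 0.0106) and K562 higher by 0.40 (adjusted p = 0.0367). The FOXP3 value in HFF1 was -0.38 without HFF1 replicate 1 (adjusted p = 0.114) and -0.33 among the 50000 strongest peaks (adjusted p = 0.0627). FOXP4 had 3 to 13 peaks with no call.

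FOXN3 split the lines in pairs. It had 34 and 32 peaks in GM12878 and 34 and 30 in HFF1, against 10 and 11 in HEK293T and 11 and 8 in K562. K562 was lower by -1.12 ± 0.10 (SE; adjusted p = 5.28e-05), a call that held under every limma alternative that tested it. GM12878 was higher by 0.81 (adjusted p = 2.91e-04) and HFF1 by 0.58 (adjusted p = 0.00148), neither called among the 20000 strongest peaks (adjusted p = 0.0529 and 0.216). FOXN2, a close relative, had 3 to 9 peaks and was called in no contrast.

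FOXO genes, the effectors of PI3K-AKT signalling, had open promoters in every library and varied around them. FOXO1 had 17 and 15 peaks in GM12878, 15 and 12 in HFF1, 5 and 4 in HEK293T and 4 and 6 in K562. GM12878 was higher by 0.83 ± 0.16 (SE; adjusted p = 0.00334), which was no longer called without GM12878 replicate 1 (0.73, adjusted p = 0.0531) or within 25 kb (0.02). K562 was lower by -0.85 ± 0.16 (adjusted p = 0.00321), or -0.55 without K562 replicate 1. FOXO3 had 24 and 21 peaks in HFF1, 20 and 19 in K562, 16 and 16 in GM12878 and 8 and 9 in HEK293T, and K562 was higher by 0.45 ± 0.08 (adjusted p = 0.00246). FOXO4 had 5 to 12 peaks, with HFF1 lower by -0.69 (adjusted p = 0.00329), which was -0.22 without centring (median gene 0.43), and K562 higher by 0.51, which was 0.27 without K562 replicate 2. FOXO6 had 4 to 12 peaks, with GM12878 higher by 0.49 (adjusted p = 0.0163) and HFF1 lower by -0.49 (adjusted p = 0.0162).

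Of the rest, FOXD1, of kidney stroma, had 12 and 12 peaks in HFF1, 10 and 10 in K562, 6 and 6 in GM12878 and 4 and 4 in HEK293T, and GM12878 was lower by -0.65 ± 0.10 (SE; adjusted p = 8.88e-04). FOXB1 had 4 and 4 peaks in HEK293T and 2 or 3 in the other libraries, a difference of 1.31 ± 0.16 (adjusted p = 3.29e-04). FOXD4 had 5 and 5 in K562 and 1 to 3 elsewhere, at 1.11 ± 0.13 (adjusted p = 2.57e-04), lost when the pileups were thinned to the lowest background level (0.48, adjusted p = 0.234). FOXI1, of kidney and inner ear ion transport, had 6 and 7 in K562 and 2 to 5 elsewhere (0.87, adjusted p = 0.00249), and 0.37 within 25 kb (adjusted p = 0.055). FOXH1 had 13 and 14 in HFF1 and 13 to 21 elsewhere (-0.79, adjusted p = 3.17e-04), with -0.13 among the 20000 strongest peaks.

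Several further calls ended or turned under an alternative. FOXL3 had 7 and 6 peaks in HFF1 and 2 or 3 elsewhere, and its HFF1 difference of 0.65 was -0.53 among the 50000 strongest peaks. FOXB2 had 1 to 5 peaks, and its K562 difference of -0.65 was -0.20 without K562 replicate 2. FOXD4L1 had 1 to 4 peaks, and its GM12878 difference of -0.83 was -0.32 without GM12878 replicate 2. FOXI3 had 1 or 2 peaks, and its HEK293T difference of 0.61 was 0.32 without HEK293T replicate 2. FOXN4, of retina and spinal cord, had 1 to 6 peaks and was higher in K562 by 0.68, which was -0.28 among the 50000 strongest peaks. FOXN1 had 12 and 15 peaks in GM12878 and 5 to 8 elsewhere, and its difference of 0.57 was not called without GM12878 replicate 2 (0.43, adjusted p = 0.0952).

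Among genes with an open promoter in all 8 libraries, the mitotic regulator FOXM1 had 6 to 13 peaks and stood higher in HEK293T by 0.53 (adjusted p = 0.0233), which was -0.18 without centring, where the median gene stood at -0.70. It was 0.35 without HEK293T replicate 2 (adjusted p = 0.183). FOXD2 had 6 to 10 peaks and FOXD3 4 to 8, both with HEK293T higher (0.65 and 0.73) and GM12878 lower (-0.51 and -0.60). The FOXD2 value in GM12878 was -0.19 without GM12878 replicate 1, and neighbouring FOXE3 shares 13 regions with FOXD2. The FOXD3 value in GM12878 was -0.05 among the 50000 strongest peaks and was not called without GM12878 replicate 1 (adjusted p = 0.0854) or 2 (adjusted p = 0.0954). In HEK293T it was 0.49 without HEK293T replicate 1 (adjusted p = 0.0623). FOXK2 had 16 and 18 peaks in GM12878 (0.39, adjusted p = 0.0226), 16 and 16 in HFF1 and 6 to 11 elsewhere. FOXJ3 had 6 and 6 in K562 (-0.39, adjusted p = 0.0215), 5 and 5 in HEK293T and 10 to 13 elsewhere. FOXL2 had 7 and 5 in GM12878 (-0.56, adjusted p = 0.0105), 6 and 5 in HEK293T and 7 to 10 elsewhere. Its GM12878 difference was -0.34 without GM12878 replicate 2. Called in no contrast were FOXE1, FOXJ1, FOXJ2, FOXK1, FOXN2, FOXP4, FOXR1 and FOXS1. A total of 15 of the 63 called differences of at least 0.5 were called under every limma alternative that tested them. The exact permutation test is not among these, since it scores a gene over all lines together. It called 6 forkhead genes, against 23.7% of all genes.

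Peaks of the 8 libraries merged into 795 regions within 50 kb of a forkhead gene, 621 of them distal. Called in both libraries of 1 line and in no other library were 104 in GM12878 (13.1%, against 14.5% of regions near any coding gene), 15 in HEK293T (1.89%, against 1.13%), 146 in HFF1 (18.4%, against 19.7%) and 51 in K562 (6.42%, against 6.49%). These shares are close to those of other genes. With the pileups thinned to the lowest background level the counts were 62 (10.2%, against 12.9%), 24 (3.97%, against 2.53%), 71 (11.7%, against 12.0%) and 16 (2.64%, against 3.60%) in the same order. The part of depth in them was not tested further. Without HEK293T replicate 1 the HEK293T count was 27 (3.41%, against 2.06%).

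The line-specific regions were unevenly spread over the family, as was the length searched, and the counts were not scaled by it. FOXP1 had 102 regions in 708830 bp, with 27 specific to HFF1, 14 to GM12878 and 12 to K562. FOXN3 had 72 in 486014 bp, with 18 specific to GM12878 and 16 to HFF1. FOXQ1 had 16 in 100001 bp, of which 10 were specific to HFF1, and FOXP2 had 23 in 522205 bp, with none called in K562. Among the regions specific to GM12878, the one with the highest mean fold lay 22534 bp upstream of FOXN3 (chr14:89641383-89642053), with folds of 17.3 and 20.1. It held none of the letters given above for AP-1, GATA, TEAD, E-box, OCT, RUNX and forkhead factors.

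Motifs were also counted over all such regions. AP-1 letters stood in 27 of 133 distal HFF1-specific regions near forkhead genes (20.3%, against 19.4% of all distal HFF1-specific regions) and GATA letters in 11 of 45 K562-specific regions (24.4%, against 21.7%). TEAD letters stood in 3 of 12 HEK293T-specific regions (against 7.88%), too few to compare, and forkhead letters in 12 of the 621 distal regions (1.93%, against 2.14%).

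The forkhead letters TGTTTAC themselves differed by line across all distal peaks. They occurred within 50 bases of the summit of 1.39% ± 0.0294 of distal peaks in GM12878 (SD, n = 2 libraries), 1.87% ± 0.0319 in K562, 2.11% ± 0.0486 in HEK293T and 2.35% ± 0.0274 in HFF1. The lines accounted for 0.9950 of the variance, and an exact one-sided permutation test over all pairings of the 8 libraries gave p = 0.00952, the smallest it can give (adjusted p = 0.00952 over 2 tests). The reversed letters CATTTGT, used as background, also differed, at 2.21%, 1.56%, 1.31% and 2.30% in the same order of lines (p = 0.00952 by the same exact test), so a difference between lines is not particular to the forkhead letters. The forkhead letters were more frequent than the reversed letters in both libraries of HEK293T and K562, less frequent in both of GM12878, and close in HFF1, where they stood at 2.34% and 2.37% against 2.31% and 2.28%.

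Genes that act with the family were also counted. Of 43 genes of FOXO signalling and FOXO targets, 37 had a promoter peak in all 8 libraries (86.0%, against 59.7% of all genes), and G6PC1, the liver glucose-6-phosphatase, had one in none. Within 50 kb, 12 of the 43 were called higher (27.9%) and 7 lower (16.3%) in GM12878, where all genes gave 22.4% and 22.0%. The counts were 3 (6.98%, against 23.1%) and 16 (37.2%, against 23.4%) in HEK293T, 18 (41.9%, against 23.4%) and 7 (16.3%, against 25.1%) in HFF1, and 11 (25.6%, against 24.5%) and 6 (against 19.1%) in K562. All 24 genes of FOXM1 and the DREAM complex, which turn over with the cell cycle, had a promoter peak in all 8 libraries. Within 50 kb, 3 were higher and 3 lower in GM12878 (12.5% each), 4 and 4 in HEK293T (16.7% each), 5 and 5 in HFF1 (20.8% each), and 6 and 2 in K562 (the latter 8.33%), against the same shares of all genes.

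Of 10 genes linked to FOXP3 and regulatory T cells, a promoter peak stood in both replicates at 7 in GM12878 (all genes 71.9%), 6 in HFF1 (76.2%), 4 in K562 (70.4%) and 3 in HEK293T (67.8%), while FOXP3 itself had none. Peaks within 50 kb were higher in GM12878 for 8 of 10 (against 22.4% of all genes) and lower for IL2, with a median log2 difference of 0.73 (all genes -0.00). In HEK293T, none was higher and 6 were lower (against 23.4%), with a median of -0.64 (all genes 0.01). The transcription factor IKZF2 stood at 1.54 in GM12878 (adjusted p = 1.47e-04), and the receptor IL7R at 1.28 in GM12878 (adjusted p = 1.59e-04). In HFF1, 6 of 10 were also higher (against 23.4%), among them LRRC32 at 1.38 (adjusted p = 3.18e-05), and in K562, 5 of 10 were lower (against 19.1%).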

How the data were processed

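Bulk ATAC-seq peak lists of 8 human libraries were used, 2 replicates each of GM12878, HEK293T, HFF1 and K562, grouped by their labels. Per the submitters' processing notes, cutadapt 3.2, Bowtie2 2.4.2, Picard and MACS2 2.2.7.1 were used with build hg38; their roles and settings are not given in the sources used here. The authors deposited 1 list per library, so replicates were not pooled. For each peak the authors deposited a fold, which is the ratio of summit pileup to local background, with a −log10 p-value and a −log10 q-value. These were used inside the list they came from, to describe peaks and to set cutoffs. The exception is the summit of a merged region, which was taken from the library with the highest fold. The lowest deposited −log10 q was 2.00 to 2.05, so a missing peak means below that threshold at that depth. Depth was recovered by solving each fold and −log10 p for a whole-number pileup and a background, which succeeded for 100% of peaks.

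Start sites came from GENCODE release 44. Peaks on the autosomes and X were counted with Python 3.11.15 (numpy 2.4.6, pandas 2.3.3, scipy 1.17.1, pysam 0.24.0) and tested with limma 3.58.1 in R 4.3.3 (moderated, with trend; pseudocount 1; genes with a mean of at least 1 peak; adjusted p under 0.05). On simulated data with 4-fold more peaks at 200 genes in HFF1, 181 were recovered (90.5%) and 1.63% of calls were false. The simulated numbers were Poisson around a mean shared by all lines and scaled to each library, with no other gene changed. In the deposited lists 82.9% of genes were called in at least 1 contrast, so these rates do not carry over to the calls reported here. Peaks merged over libraries formed regions, called in a line when both libraries had a peak.

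Members, gene lists and tests were chosen with earlier results of these data known. Named are members called in any contrast, with promoter peaks in some lines only, with most peaks or with several start sites; members without a promoter peak are named, with values where a contrast called them. Sequences came from RefSeq promoters on GRCh38.p14 and from the genome. Alternatives covered depth, scaling, window, filter, peak strength, the test and each library left out. A member and a marker are counted in the totals and not reported here by name.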

Additional observations from a re-analysis of the deposited data

How the results depend on the processing

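Absence of a peak is limited by depth, above all in HEK293T. Counts near the family depend on how lists of unequal length are compared. Among the 20000 strongest peaks of each library, 30 genes were tested and called genes numbered 21 in any contrast (70.0%, against 61.8% of all genes), 8 in GM12878 (26.7%, against 36.1%), 11 in HEK293T (36.7%, against 39.8%) and 11 in HFF1 (36.7%, against 36.4%). Promoter peaks then stood at 9 of 50 genes in GM12878 (against 49.6%), 17 in HEK293T (49.0%) and 12 in HFF1 (46.8%), 6 in every library (34.3%) and 25 in none (30.5%). With thinned pileups, 16 genes of 43 were called in GM12878 (against 29.5% of all genes) and 11 in HEK293T (25.8%). Base pairs covered called 32 of 47 in HEK293T (64.5%) and 30 in K562 (63.6%), and no centring 32 of 44 in HEK293T (77.3%). The exact permutation test called 6 genes, those at the smallest p, against 23.7% of all genes. Line-specific regions numbered 44, 28 and 51 in GM12878, HEK293T and HFF1 among the 50000 strongest peaks (9.73%, 6.19% and 11.3%, against 12.0%, 4.70% and 12.6% near any coding gene). With thinned pileups they numbered 62, 24, 71 and 16 in GM12878, HEK293T, HFF1 and K562 (10.2%, 3.97%, 11.7% and 2.64%, against 12.9%, 2.53%, 12.0% and 3.60%).

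With 1 library left out in turn, called genes ranged from 32 to 38 in any contrast (all genes 74.0% to 83.6%), 14 to 27 in GM12878 (25.1% to 47.7%), 13 to 19 in HEK293T (37.1% to 42.8%), 12 to 21 in HFF1 (29.7% to 51.6%) and 12 to 19 in K562 (25.9% to 47.1%). Line-specific regions then ranged from 106 to 131 in GM12878, 15 to 27 in HEK293T, 148 to 211 in HFF1 and 51 to 76 in K562. Each highest count came without 1 library of that line, where the share near any coding gene was also above its main value. The highest counts were 16.6% of regions in GM12878 and 26.9% in HFF1 (against 18.8% and 27.3% near any coding gene). In HEK293T and K562 they were 3.41% and 9.74% (against 2.06% and 8.97%). Without HEK293T, chosen after seeing the data, 19 genes had a promoter peak in every library.

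The replicate block called 25, 19, 20 and 18 genes in GM12878, HEK293T, HFF1 and K562 (all genes 44.6%, 46.1%, 48.4% and 43.3%), and its exact motif test gave p = 0.0417. Replicate numbers did not pair the libraries: the correlation between lines of the difference between replicates lay between -0.00235 and 0.0169 over 19036 genes.

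Of 63 called differences of at least 0.5, the sign turned in 14 combinations of a difference and a setting. Without centring, HEK293T stood at -0.06 for FOXD2, -0.13 for FOXE3, -0.14 for FOXF2, -0.10 for FOXI3 and -0.18 for FOXM1, where the median of all genes was -0.70, so each still stood above the median gene. Among the 20000 strongest peaks, FOXD1 in K562 stood at -0.34, FOXL1 at 0.09 in GM12878 and -0.20 in HFF1, and FOXN1 in GM12878 at -0.11. Among the 50000 strongest, FOXL3 in HFF1 stood at -0.53, FOXN4 in K562 at -0.28 and FOXP2 in GM12878 at -0.29. FOXL3 in HFF1 was -0.26 with thinned pileups, and FOXD4L1 in GM12878 0.27 within 100 kb. The cause of the other turns was not tested.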
